A study of Homo sapiens with 16 samples.

Results

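Fumarylacetoacetate hydrolase (FAH) ends tyrosine breakdown by splitting fumarylacetoacetate into fumarate and acetoacetate. The genes described here are FAH, the enzyme just before it (GSTZ1) and the enzymes that use or make acetoacetate (ACAT1, AACS, OXCT1, BDH1 and BDH2). They were chosen by name as 7 of the 78986 features of the expression table, and each was found once. Of these, 6 passed the filter on low values and were tested, among 16218 tested genes, and OXCT1 did not pass it.

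RNA was sequenced from T47D, a human cell line established from a breast cancer, with the estrogen receptor and other luminal features. The 4 groups, of 4 libraries each, were FAH knockout cells with 500 nM abemaciclib (KO ABE), FAH knockout cells with vehicle, DMSO (KO DMSO), cells carrying a control guide with 500 nM abemaciclib (Cntr ABE) and cells carrying a control guide with vehicle (Cntr DMSO). All were sampled at day 3. Abemaciclib blocks CDK4 and CDK6, kinases that drive the cell cycle, and the series title names FAH in connection with resistance to such drugs. Whether the knockout line was clonal or pooled, which guides were used and whether replicate libraries stem from separate cultures is not given in the sources used here. The p-values therefore measure only the spread between replicate libraries, which may be technical.

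Acetoacetate is a ketone body, a small water-soluble fuel that liver makes from acetyl-CoA and that other tissues burn. In mitochondria OXCT1 transfers coenzyme A from succinyl-CoA to acetoacetate, and ACAT1 splits the resulting acetoacetyl-CoA into acetyl-CoA. In the cytosol AACS activates acetoacetate with ATP for sterol and fatty acid synthesis, without passing through the mitochondrion. BDH1 in mitochondria, and BDH2 in the cytosol, interconvert acetoacetate and beta-hydroxybutyrate. Tyrosine breakdown is best known from liver and kidney, where inherited loss of FAH causes hereditary tyrosinaemia with a build-up of reactive intermediates.

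The libraries held 9915775 to 11963096 assigned reads, and levels are counts per 1000000 assigned reads (CPM), a scale on which levels of different genes are not compared because it is not corrected for length. A level of 1 CPM is about 10 reads here. The summed level of 7 luminal markers (ESR1, PGR, GATA3, FOXA1, KRT8, KRT18 and KRT19) was 8909 to 15320 CPM. The 4 basal or mesenchymal markers summed to 12.6 to 20.1 CPM, nearly all from VIM (11.9 to 19.3 CPM), with KRT5 and KRT14 below 0.1 CPM. The 3 leukocyte markers summed to 1.41 to 2.94 CPM. The 3 fibroblast markers summed to 57.1 to 61.1 CPM in KO ABE, 47.6 to 57.1 CPM in KO DMSO, 49.2 to 61.4 CPM in Cntr ABE and 41.4 to 44.3 CPM in Cntr DMSO, nearly all from COL1A1 (40.6 to 60.6 CPM), with COL1A2 and DCN below 1 CPM. All 3 hepatocyte markers (ALB, APOA1 and TTR) were below 1 CPM in every library, with a summed level of 0.170 to 1.40 CPM. The luminal sum moved with both factors, at 15060 to 15320 CPM in KO ABE, 12480 to 12880 CPM in KO DMSO, 10610 to 11080 CPM in Cntr ABE and 8909 to 9081 CPM in Cntr DMSO. Between genotypes this sum was carried by KRT8 and KRT18. ESR1, PGR, GATA3 and FOXA1 had lower means in KO ABE than in Cntr ABE, and in KO DMSO than in Cntr DMSO. With the drug, the means of KRT8, KRT18, KRT19 and PGR were higher in each genotype, and that of FOXA1 lower. In control cells KRT19 averaged 2649 CPM with abemaciclib and 1912 CPM with vehicle, KRT8 3363 and 2700 CPM, and KRT18 1859 and 1725 CPM. Reads were whole numbers in 1 of 16 libraries for KRT8 and KRT18, 4 for KRT19 and 8 for PGR, so these levels are uncertain. The part of these marker shifts in the results below was not tested. In bulk RNA, fewer cells of a kind and less RNA per cell cannot be told apart.

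FAH was the gene that the knockout targets. It lies on chromosome 15, from 80152490 to 80186946 on the plus strand (GRCh38, ENSG00000103876). Its level was 5.03, 5.67, 6.79 and 5.54 CPM in KO ABE, 6.77, 6.53, 6.27 and 7.02 CPM in KO DMSO, 23.4, 24.1, 25.8 and 22.6 CPM in Cntr ABE, and 25.1, 27.5, 25.2 and 28.2 CPM in Cntr DMSO. All 8 knockout libraries lay below all 8 control-guide libraries, while the treatments overlapped within each genotype. FAH mRNA in knockout cells was at 24.0% of control under abemaciclib and 25.1% under vehicle, and these were the lowest and second-lowest log2 fold changes of the 16218 tested genes (-1.89 and -1.84). Since the guide targeted FAH, its change between genotypes checks the labels and is no finding, and the protein was not measured. Between abemaciclib and vehicle FAH did not pass the test, with a log2 fold change of -0.18 in knockout cells (limma adjusted p = 0.0639) and -0.14 in control cells (limma adjusted p = 0.145). In knockout cells it passed without KO ABE replicate 3 (-0.255, limma adjusted p = 0.0117) and with a pseudocount of 0.1 (limma adjusted p = 0.0481).

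**Figure D1:**
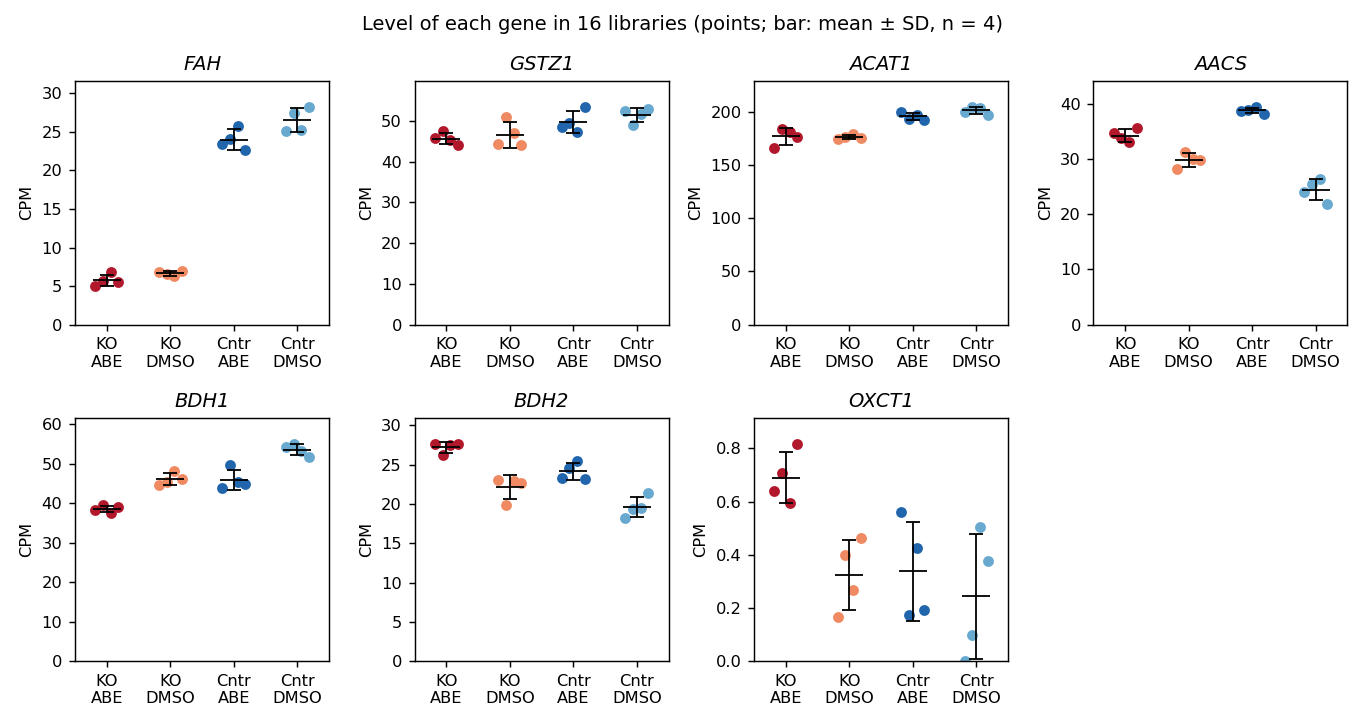
Level of each gene in counts per 1000000 assigned reads (CPM), 1 panel per gene on its own scale, with a point per library and a bar for the mean and SD of the 4 libraries of a group. FAH is low in all 8 knockout libraries, all 4 groups of AACS stand apart, BDH1 is lowest and BDH2 highest in KO ABE, and OXCT1 stays below 1 CPM.

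GSTZ1 is the maleylacetoacetate isomerase that makes the substrate of FAH, and it lies on chromosome 14, from 77320884 to 77331597 on the plus strand. Its mRNA held 45.7, 47.5, 45.4 and 44.0 CPM in KO ABE, 44.4, 50.9, 47.02 and 44.1 CPM in KO DMSO, 48.6, 49.5, 47.3 and 53.4 CPM in Cntr ABE, and 52.3, 49.0, 51.6 and 53.0 CPM in Cntr DMSO. Knockout libraries were mostly the lower ones, but both genotype comparisons overlapped, and no neighbours in the order of the 4 group means stood apart. Under vehicle GSTZ1 was called lower in knockout cells, at 46.6 ± 3.14 against 51.5 ± 1.75 CPM (SD, n = 4 each, log2 fold change -0.14, SE 0.0503, limma adjusted p = 0.0241), while the exact two-sided permutation test gave p = 0.0571. The call was lost without Cntr DMSO replicate 1 or 4, KO DMSO replicate 1 or 4 or the filter on low values (limma adjusted p up to 0.0940). Under abemaciclib the value was -0.12 and missed the threshold (limma adjusted p = 0.0717), and it passed after median-of-ratios rescaling (-0.16) and quantile normalization (-0.165) of the libraries. The drug comparisons of GSTZ1 gave -0.03 in knockout cells (95% interval -0.13 to 0.08) and -0.05 in control cells (-0.15 to 0.05), and neither passed.

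ACAT1, the mitochondrial acetoacetyl-CoA thiolase, lies on chromosome 11, from 108121516 to 108147776 on the plus strand. It held 166.2, 183.9, 181.1 and 175.8 CPM in KO ABE, 174.7, 176.3, 178.8 and 175.1 CPM in KO DMSO, 199.8, 192.7, 197.1 and 192.5 CPM in Cntr ABE, and 199.7, 204.2, 203.4 and 197.1 CPM in Cntr DMSO. Every knockout library lay below every control-guide library, and within each genotype the treatments overlapped. In knockout cells under abemaciclib ACAT1 fell by 0.15 on the log2 scale (SE 0.0334, limma adjusted p = 9.5e-04) and fell by 0.19 under vehicle (limma adjusted p = 2.7e-05), to 90.4 and 87.6% of the control-guide mean. Both calls held in all 25 alternatives tried. Abemaciclib against vehicle gave 0.00 in knockout cells (95% interval -0.06 to 0.07) and -0.04 in control cells (-0.11 to 0.03). These values depended on the scaling, at 0.10 in knockout cells after median-of-ratios rescaling (limma adjusted p = 0.0265) and 0.10 in control cells after quantile normalization (limma adjusted p = 0.0092), so no direction is given for the drug. An antisense gene, AP002433.1, overlaps the start of ACAT1 by 169 bases, and it held 5.67 to 10.4 CPM.

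AACS, acetoacetyl-CoA synthetase of the cytosol, had the largest drug response of the 6 tested genes, in control cells, and was the 1 gene of the 6 whose response differed between genotypes by the test of the interaction. It lies on chromosome 12, from 125065379 to 125143333 on the plus strand. Its mRNA held 34.7, 33.7, 33.0 and 35.5 CPM in KO ABE, 28.1, 31.2, 29.9 and 29.8 CPM in KO DMSO, 38.7, 38.9, 39.3 and 38.2 CPM in Cntr ABE, and 24.0, 25.5, 26.4 and 21.9 CPM in Cntr DMSO. No groups overlapped: every Cntr DMSO library was below every KO DMSO library, these were below every KO ABE library, and every Cntr ABE library was above all others.

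In control cells AACS averaged 38.8 ± 0.478 CPM with abemaciclib and 24.4 ± 1.98 CPM with vehicle (SD, n = 4 each). This was a log2 fold change of 0.65 (SE 0.0557, limma adjusted p = 7.5e-12), the 416th highest of 16218 tested genes. In knockout cells AACS rose less with the drug, at 34.2 ± 1.10 CPM with abemaciclib and 29.8 ± 1.27 CPM with vehicle (log2 fold change 0.20, SE 0.0557, limma adjusted p = 0.00527). The difference between these responses was -0.45 log2 units (95% interval -0.61 to -0.29, SE 0.0788, limma adjusted p = 1.3e-04), and it passed in all 24 alternatives, with values of -0.49 to -0.40. Read by genotype, AACS fell by 0.18 in knockout cells under abemaciclib (limma adjusted p = 0.0152), and was higher by 0.28 in knockout cells under vehicle (limma adjusted p = 1.7e-04). The lower level under abemaciclib missed the threshold without KO ABE replicate 3 (limma adjusted p = 0.0510). The exact two-sided permutation test gave p = 0.0286 in each of these 4 group comparisons, the smallest that 70 assignments of 4 against 4 libraries allow. A gene on the same strand, AC122688.3, lies within AACS and held 1.60 to 3.21 CPM.

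OXCT1, the mitochondrial transferase that starts the use of acetoacetate as fuel, was barely detected. It lies on chromosome 5, from 41730065 to 41870519 on the minus strand. The libraries held 0.640, 0.708, 0.595 and 0.817 CPM in KO ABE, 0.167, 0.399, 0.269 and 0.462 CPM in KO DMSO, 0.561, 0.175, 0.425 and 0.193 CPM in Cntr ABE, and 0, 0.0992, 0.504 and 0.377 CPM in Cntr DMSO. All 4 KO ABE libraries lay above the other 12, which overlapped among themselves. In reads these values were 31 in KO ABE, 14 in KO DMSO, 15 in Cntr ABE and 10 in Cntr DMSO, 70 of 173785081 assigned reads in all. Pooled over a group, the level was 0.689 CPM in KO ABE (95% exact Poisson interval 0.468 to 0.977), 0.318 CPM in KO DMSO (0.174 to 0.534), 0.339 CPM in Cntr ABE (0.190 to 0.559) and 0.247 CPM in Cntr DMSO (0.118 to 0.454). These intervals cover counting error only, and that of KO ABE overlaps those of KO DMSO and Cntr ABE.

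OXCT1 was not tested in the fit across genes. The exact two-sided permutation test gave p = 0.0286, its smallest value, for KO ABE against Cntr ABE and for KO ABE against KO DMSO. In limma without the filter on low values neither passed (adjusted p = 0.145 and 0.105). The single library at 0, Cntr DMSO replicate 1, allows a level of up to 0.303 CPM. OXCT2, a relative of OXCT1 best known from testis, was also under the filter, at 0.0448 to 0.504 CPM.

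BDH1, the mitochondrial beta-hydroxybutyrate dehydrogenase, fell with the knockout and with the drug. It lies on chromosome 3, from 197509783 to 197573323 on the minus strand. Its mRNA held 38.2, 39.4, 37.6 and 39.0 CPM in KO ABE, 44.6, 45.4, 48.1 and 46.2 CPM in KO DMSO, 43.8, 49.6, 45.5 and 44.7 CPM in Cntr ABE, and 54.2, 55.0, 53.1 and 51.7 CPM in Cntr DMSO. All KO ABE libraries were below all others and all Cntr DMSO libraries above all others, while KO DMSO and Cntr ABE overlapped. Between genotypes it fell by 0.24 on the log2 scale in knockout cells with abemaciclib (limma adjusted p = 1.2e-04) and fell by 0.21 under vehicle (limma adjusted p = 5.4e-04). With abemaciclib it fell by 0.25 in knockout cells (limma adjusted p = 5.6e-05) and fell by 0.22 in control cells (limma adjusted p = 2.2e-04). All 4 calls held in the 25 alternatives. The interaction was -0.03 (95% interval -0.17 to 0.10), so a difference between the genotypes' responses was not detected within that interval.

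BDH2, the cytosolic dehydrogenase, rose with the drug in both genotypes, opposite to BDH1. It is also known for making a mammalian siderophore, an iron-binding molecule. It lies on chromosome 4, from 103079435 to 103099883 on the minus strand, and 6395 of its bases overlap SLC9B2 on the same strand, which held 3.32 to 5.86 CPM. Its mRNA held 27.6, 26.1, 27.4 and 27.6 CPM in KO ABE, 23.0, 19.8, 22.9 and 22.7 CPM in KO DMSO, 23.3, 24.6, 25.5 and 23.2 CPM in Cntr ABE, and 18.3, 19.4, 19.5 and 21.3 CPM in Cntr DMSO. KO ABE was above all other libraries, Cntr ABE lay above both vehicle groups, and the vehicle groups overlapped.

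With abemaciclib BDH2 rose by 0.29 log2 units in knockout cells (SE 0.0619, limma adjusted p = 3.0e-04) and by 0.29 in control cells (limma adjusted p = 2.2e-04), and both calls held in all 25 alternatives. Its interaction was 0.00 (95% interval -0.17 to 0.18). Knockout against control cells gave 0.17 under abemaciclib (limma adjusted p = 0.0381) and 0.16 under vehicle (limma adjusted p = 0.0352). Each of these 2 calls was lost in 9 of 25 alternatives, among them median-of-ratios rescaling (0.13 and 0.10) and quantile normalization (0.13 and 0.10). The call under abemaciclib was also lost without any 1 of Cntr ABE replicates 1, 2 and 4 and KO ABE replicates 1, 3 and 4 (limma adjusted p up to 0.0974), and that under vehicle without any 1 of Cntr DMSO replicates 1, 2 and 3 and KO DMSO replicates 1, 3 and 4 (up to 0.125). Reads of BDH2 were whole numbers in 5 of 16 libraries and those of BDH1 in 7, as happens when reads are split between genes, so the levels of both are uncertain by an unknown amount.

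**Figure D2:**
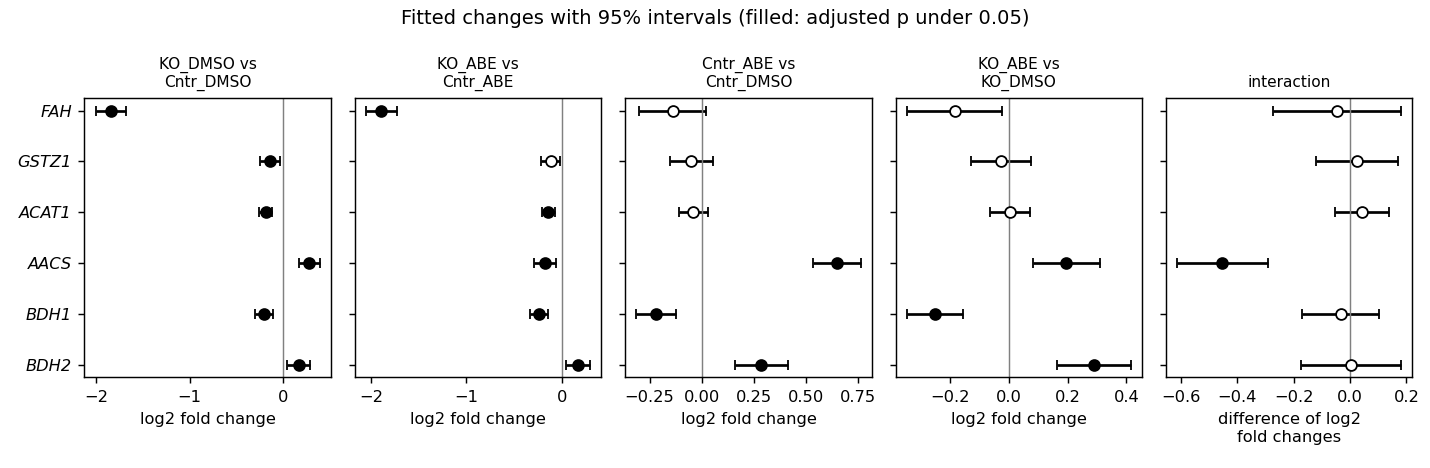
Fitted log2 fold changes of the 6 tested genes with 95% intervals, 1 panel per comparison on its own axis, with filled points for limma adjusted p under 0.05. AACS is the only filled point in the interaction (-0.45), and it lies right of 0 in both drug panels and left of 0 for KO ABE against Cntr ABE.

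BDH1 and BDH2 encode enzymes of the same reaction in different compartments, and their ratio within a library was highest in KO ABE and lowest in Cntr DMSO. The log2 ratio of BDH2 to BDH1, in CPM, was -0.47, -0.59, -0.46 and -0.50 in KO ABE and -0.96, -1.19, -1.07 and -1.03 in KO DMSO. In control cells it was -0.91, -1.01, -0.84 and -0.95 in Cntr ABE and -1.57, -1.50, -1.44 and -1.28 in Cntr DMSO. KO ABE lay above and Cntr DMSO below all other libraries, and KO DMSO and Cntr ABE overlapped. The ratio does not depend on the scaling of a library, and since the genes differ in length only its shifts between groups can be read. The ratio of AACS to ACAT1, enzymes that make and split acetoacetyl-CoA in different compartments, was lowest in Cntr DMSO. Its mean log2 value was -2.37 ± 0.0986 in KO ABE, -2.57 ± 0.0569 in KO DMSO, -2.33 ± 0.0257 in Cntr ABE and -3.04 ± 0.0968 in Cntr DMSO (SD, n = 4 each).

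**Figure D3:**
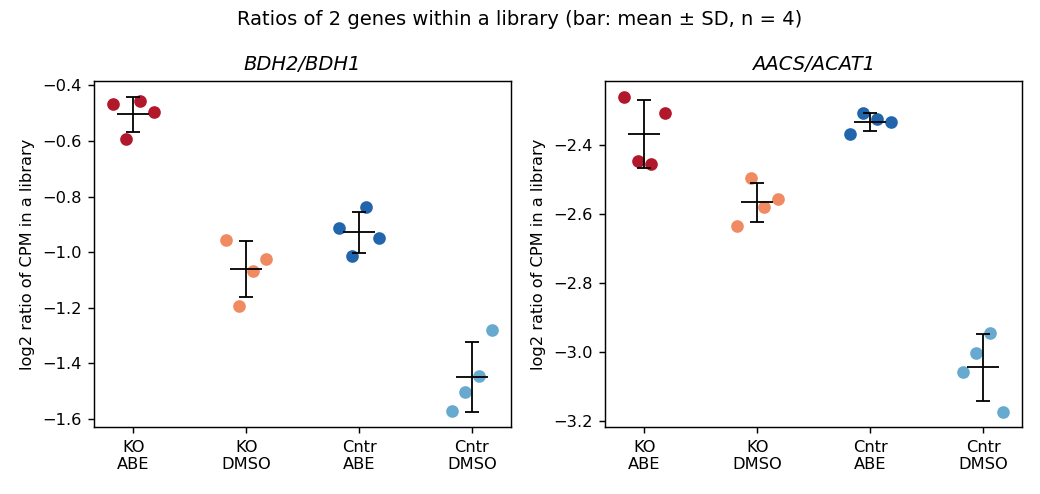
Log2 ratio of the CPM of 2 genes within each library, with the mean and SD of 4 libraries; the vertical axes do not start at 0. For BDH2/BDH1 the 4 KO ABE libraries are highest (-0.59 to -0.46) and the 4 Cntr DMSO libraries lowest (-1.57 to -1.28), and for AACS/ACAT1 Cntr DMSO stands below the other 3 groups.

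Promoter sequence is shown for AACS, BDH1 and BDH2, the genes whose mRNA changed with the drug in both genotypes. Each is the 250 bases before a RefSeq start (GRCh38.p14), read 5′ to 3′ on the gene's strand, and capitals mark GC boxes (GGGCGG, or CCGCCC on the other strand). The AACS window lies at chr12:125065185-125065434 on the plus strand, the second of 2 BDH1 windows at chr3:197555969-197556218 on the minus strand, and the BDH2 window at chr4:103099835-103100084 on the minus strand.
AACS: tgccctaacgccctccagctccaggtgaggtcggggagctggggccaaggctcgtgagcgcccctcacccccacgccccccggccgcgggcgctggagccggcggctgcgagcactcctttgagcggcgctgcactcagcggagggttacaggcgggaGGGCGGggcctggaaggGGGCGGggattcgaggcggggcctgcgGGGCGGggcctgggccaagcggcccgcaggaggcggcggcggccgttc
BDH1: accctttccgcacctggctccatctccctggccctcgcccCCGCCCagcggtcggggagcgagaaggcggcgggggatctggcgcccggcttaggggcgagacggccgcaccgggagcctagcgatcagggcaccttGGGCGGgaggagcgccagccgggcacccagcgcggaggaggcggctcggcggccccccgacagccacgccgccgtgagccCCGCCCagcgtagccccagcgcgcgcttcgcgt
BDH2: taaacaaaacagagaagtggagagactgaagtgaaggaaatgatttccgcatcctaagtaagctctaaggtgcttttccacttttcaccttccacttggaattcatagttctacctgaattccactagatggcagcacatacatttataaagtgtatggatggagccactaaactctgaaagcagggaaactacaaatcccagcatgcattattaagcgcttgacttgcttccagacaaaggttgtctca
The AACS and BDH1 windows are rich in G and C (77.6% each) and hold 3 GC boxes each. The BDH2 window has 40.8% G and C and none, as has the other BDH1 window (45.6%). A GC box was found in 42.6% of all 35116 windows of this length. The other windows held 7 GC boxes in each of 2 overlapping windows for FAH, 3 for GSTZ1, 3 and 0 for ACAT1 and 3 and 0 for OXCT1. The sterol regulatory element TCACNCCAC was searched on both strands and was in none of the 11 windows of the 7 genes, and in 0.883% of all windows. TTTGAA, the CHR element of cell cycle promoters, was in 1 window of OXCT1 and in 13.3% of all windows. CCAAT was in 1 window of ACAT1 and in 32% of all windows. These matches describe the letters in these windows and no binding was measured.

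Counted over the 6 tested genes, 1 (BDH2) was higher and 4 (FAH, ACAT1, AACS and BDH1) were lower in KO ABE than in Cntr ABE. Of all tested genes 18.6% were called higher and 11.3% lower in that comparison, or 13.4 and 14.7% after median-of-ratios rescaling. The counts of the 6 genes, and those of the lists below, are from the fit before rescaling. After it BDH2 was not called in that comparison (limma adjusted p = 0.14) and GSTZ1 was called lower (limma adjusted p = 0.0169). Under vehicle 2 (AACS and BDH2) were higher and 4 (FAH, GSTZ1, ACAT1 and BDH1) lower, where 24.6% of all genes were called higher and 13.1% lower (17.4 and 18.4% after rescaling). FAH is 1 of the 4 lower genes in each case by design. The median log2 fold change of the 6 genes was -0.16 under abemaciclib and -0.17 under vehicle, beside 0.04 and 0.06 over all tested genes.

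Under abemaciclib against vehicle, 2 of 6 (AACS and BDH2) were higher and 1 (BDH1) lower in knockout cells, and the same 3 genes were called in the same directions in control cells. Of all genes 11% were called higher and 27.4% lower in knockout cells (20 and 17.6% after rescaling), and 19.6 and 31.1% in control cells (25.9 and 24.7%). A share of 1 in 6 lower is not above these backgrounds. The medians of the 6 genes were -0.01 in knockout and -0.05 in control cells, beside -0.07 and -0.05 over all tested genes. In the interaction 0 of 6 were higher and 1 (AACS) lower, where 4.68% of all genes were called higher and 6.16% lower. The comparisons share groups, so their counts are not independent of each other. Of 28 exact permutation tests, 7 genes in 4 group comparisons, 17 gave the smallest p. Among them were the genotype comparisons of FAH, which differ by design, and comparisons of OXCT1, which was under the filter. The share of all genes at the smallest p was not computed, so this count is no result about the 7 genes.

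FAH and AACS were the only genes of the 7 whose group means spanned at least 0.5 log2 units among those tested, and genes with the most similar pattern over the 4 group means were sought among 11030 genes. Likeness was the root mean square difference of the centred group means. For AACS (span 0.65) the nearest were CSAD (0.0178 log2 units), the overlapping pair GET1-SH3BGR and SH3BGR (0.0231 and 0.0232), RGL3 (0.0243) and SULF1 (0.0247). CSAD, which makes a precursor of taurine, averaged 55.0 CPM in KO ABE, 47.04 CPM in KO DMSO, 60.1 CPM in Cntr ABE and 38.6 CPM in Cntr DMSO. For FAH (span 2.03) none came that near. The nearest were FOLR1 (0.272), LIN28A (0.292, from partly shared reads), S100A1 (0.305), TNNT1 (0.339) and CLEC2B (0.350). FOLR1, a folate receptor, averaged 5.58 CPM in KO ABE, 6.70 CPM in KO DMSO, 17.9 CPM in Cntr ABE and 16.5 CPM in Cntr DMSO.

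The other genes of tyrosine breakdown were few at the mRNA level. TAT, HPD and HGD, the enzymes that take tyrosine to the substrate of GSTZ1, were below the filter, with at most 0.255, 0.425 and 0.425 CPM in any library. Of the 4 tested genes of the list, 1 was higher and 0 lower in knockout cells under abemaciclib, and 2 and 1 under vehicle. With so few genes these counts lie near the shares of all tested genes (18.6% higher and 11.3% lower under abemaciclib, 24.6 and 13.1% under vehicle). PCBD1, which helps to recycle tetrahydrobiopterin, was higher by 0.25 in knockout than in control cells under abemaciclib (limma adjusted p = 6.6e-04). Its increase of 0.15 under vehicle, and that of GOT2 (0.11), were each lost in 8 of 25 alternatives, rescaling among them, and without any 1 of 4 vehicle libraries (Cntr DMSO replicates 3 and 4 and KO DMSO replicates 2 and 3 for PCBD1, limma adjusted p up to 0.0987, and replicates 2 and 3 of both genotypes for GOT2, up to 0.177). The aminotransferase GOT1 was lower by 0.23 in knockout than in control cells under vehicle. With abemaciclib GOT1 fell to 54.7 ± 0.754 CPM in knockout cells, against 73.4 ± 2.65 CPM with vehicle, and to 52.9 ± 2.54 CPM in control cells, against 86.1 ± 3.20 CPM with vehicle, and these responses differed (interaction 0.28, limma adjusted p = 0.00222). QDPR, a reductase of the same cofactor, rose by 0.39 and 0.45 with the drug in knockout and control cells. FAHD1, FAHD2A and FAHD2B share a domain with FAH and have other substrates. Of these, FAHD2A passed once, higher by 0.24 in knockout cells under abemaciclib (limma adjusted p = 0.0298), a call lost after rescaling (limma adjusted p = 0.0782) and without any 1 of Cntr ABE replicates 1 and 4 and KO ABE replicates 1, 2 and 4 (up to 0.149), from reads whole in 5 of 16 libraries.

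Other enzymes that make or use acetoacetate or acetoacetyl-CoA also changed. HMGCLL1, a lyase of HMG-CoA outside mitochondria, was higher by 0.56 and 0.40 in knockout cells under abemaciclib and vehicle, at no more than 1.87 CPM, and the call under vehicle was lost without Cntr DMSO replicate 1 or 3 or KO DMSO replicate 1 or 3 (limma adjusted p up to 0.169), after median-of-ratios rescaling (0.0614) or quantile normalization (0.173) and without the filter (0.166). ACAT2, the cytosolic counterpart of ACAT1, was at 22.3 ± 1.60 CPM in KO ABE and 47.2 ± 1.80 CPM in KO DMSO (-1.05, limma adjusted p = 5.2e-16). In control cells it was at 21.8 ± 1.82 CPM in Cntr ABE and 55.4 ± 3.58 CPM in Cntr DMSO (-1.31, limma adjusted p = 8.7e-19). AACS, which makes acetoacetyl-CoA in the same compartment, thus rose with the drug where ACAT2 fell.

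HMGCS1, which turns cytosolic acetoacetyl-CoA into HMG-CoA, rose by 0.75 and 0.72 in knockout cells under abemaciclib and vehicle (limma adjusted p = 2.8e-14 and 5.6e-14), from reads that were whole in 7 of 16 libraries. Of the 10 genes from HMGCS1 to LSS in sterol synthesis, 9 rose and 0 fell in knockout cells under abemaciclib, with a median of 0.32, where 18.6% of all tested genes were called higher and 11.3% lower (13.4 and 14.7% after rescaling). Under vehicle 7 rose and 1 (FDPS) fell, with a median of 0.29, where 24.6 and 13.1% of all genes did (17.4 and 18.4%). With the drug 2 rose and 8 fell in each genotype, with medians of -0.30 in knockout and -0.36 in control cells. Of all genes 11% were higher and 27.4% lower with the drug in knockout cells (20 and 17.6% after rescaling), and 19.6 and 31.1% in control cells (25.9 and 24.7%). LSS, lanosterol synthase, was the second gene that rose with the drug beside HMGCS1 (0.14 and 0.30). FDPS and FDFT1, which make farnesyl diphosphate and squalene, had smaller decreases in knockout cells (-0.42 and -0.31) than in control cells (-0.65 and -0.55), with interactions of 0.23 and 0.24 (limma adjusted p = 0.00678 and 0.00199). Earlier results of these data had already shown cholesterol synthesis higher in knockout cells, so this is no independent evidence.

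**Figure D4:**
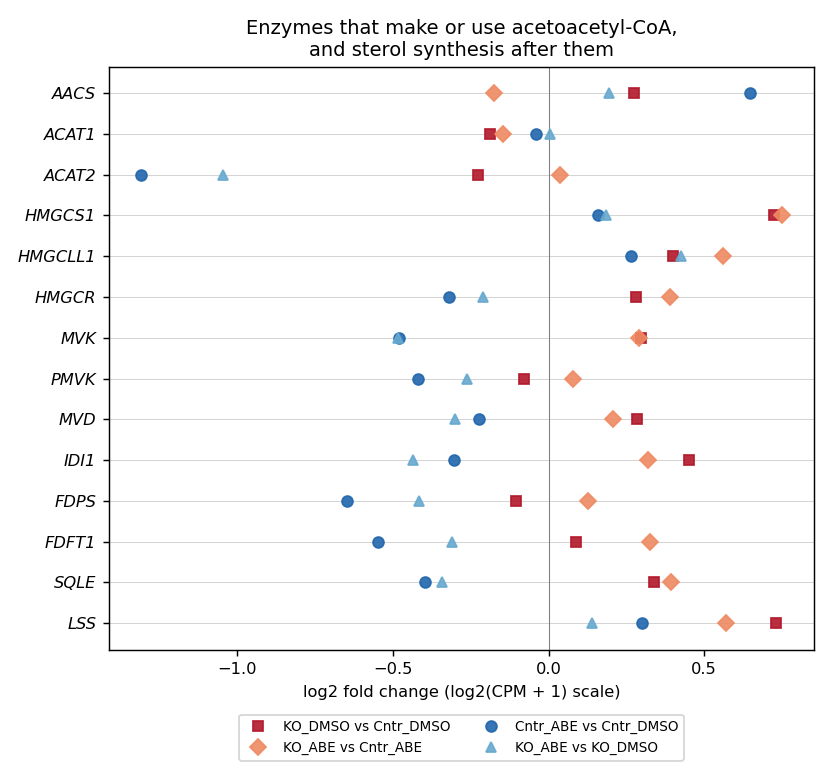
Fitted log2 fold changes, on the log2(CPM + 1) scale, of AACS, ACAT1, other enzymes of acetoacetyl-CoA and HMG-CoA, and sterol synthesis genes in 4 comparisons, 1 symbol per comparison. In the drug comparisons ACAT2 lies at -1.31 and -1.05 and most sterol genes lie left of 0, with AACS, HMGCS1, HMGCLL1 and LSS on the right, and in the genotype comparisons HMGCS1 and LSS lie furthest right.

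Acetoacetate and beta-hydroxybutyrate cross membranes through monocarboxylate transporters. Of 5 tested genes of this list, 1 rose and 3 fell in knockout cells under abemaciclib (median -0.65), and 1 rose and 4 fell under vehicle (median -0.56). Of all genes 18.6% were called higher and 11.3% lower under abemaciclib, and 24.6 and 13.1% under vehicle. SLC16A3 (MCT4), best known for lactate export, was at 6.68 ± 0.689 CPM in KO ABE and 15.8 ± 1.09 CPM in Cntr ABE (-1.13, limma adjusted p = 1.9e-13). Under vehicle it was at 9.98 ± 0.653 CPM in KO DMSO and 16.9 ± 0.466 CPM in Cntr DMSO (-0.71), and its drug response differed between genotypes (interaction -0.43, limma adjusted p = 0.00989). SLC16A6, known as a transporter of beta-hydroxybutyrate from zebrafish liver, fell by 0.65 and 0.56 in knockout cells. The ancillary protein EMB fell by 0.69 and 0.85. SLC16A1 (MCT1), an importer of ketone bodies, fell by 0.49 under vehicle at 1.62 ± 0.381 CPM in KO DMSO and 2.66 ± 0.254 CPM in Cntr DMSO. The member that was higher in knockout cells in both genotype comparisons was the chaperone BSG, by 0.18 under abemaciclib. Reads of SLC16A6 were whole in 6 of 16 libraries, so its level is uncertain.

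Fumarate is the other product of FAH. The list of 9 tested genes held those that make or use it and the malate dehydrogenases MDH1 and MDH2, which do neither. Of these 9, 0 rose and 1 (MDH2) fell in knockout cells under abemaciclib. Under vehicle 0 rose and 7 fell, MDH1 and MDH2 among them (median -0.19). Of all genes 11.3% were called lower under abemaciclib, a share that 1 of 9 does not exceed, and 13.1% under vehicle (18.4% after rescaling). FH, fumarate hydratase, was lower by 0.20 in knockout than in control cells under vehicle. With the drug it was at 34.7 ± 1.79 CPM in KO ABE and 46.0 ± 1.59 CPM in KO DMSO, and at 37.4 ± 0.281 CPM in Cntr ABE and 52.9 ± 2.83 CPM in Cntr DMSO (-0.40 and -0.49). With abemaciclib 1 rose and 5 fell in knockout cells, and 1 and 7 in control cells, where 27.4 and 31.1% of all genes were called lower (17.6 and 24.7% after rescaling). The gene that fell under abemaciclib was MDH2 (-0.08, limma adjusted p = 0.0323), a call lost in 8 of 25 alternatives, among them without Cntr ABE replicate 2 or 3 or KO ABE replicate 1 or 4 (up to 0.130). ADSL, from reads whole in 1 of 16 libraries, and SDHB had interactions of 0.30 and 0.25.

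Leucine and lysine breakdown also end in acetoacetate or acetoacetyl-CoA. Of 14 tested genes, 0 rose and 3 fell in knockout cells under abemaciclib, and 2 rose and 4 fell under vehicle (medians -0.02 and -0.01). Beside 18.6% of all genes higher and 11.3% lower under abemaciclib (13.4 and 14.7% after rescaling), and 24.6 and 13.1% under vehicle (17.4 and 18.4%), these counts are no result about the list. BCKDHA and DBT encode subunits of the branched-chain ketoacid dehydrogenase. In knockout cells they were lower than in control cells by 0.43 each under abemaciclib, and by 0.29 and 0.22 under vehicle. The call of DBT under vehicle was lost without Cntr DMSO replicate 4 or KO DMSO replicate 3 or 4 (limma adjusted p up to 0.0628), and reads of BCKDHA were whole in 6 of 16 libraries. HADH, which oxidises hydroxyacyl-CoA to ketoacyl-CoA, fell with the drug, to 31.6 ± 1.40 CPM in KO ABE, against 43.9 ± 2.62 CPM in KO DMSO, and to 33.8 ± 2.06 CPM in Cntr ABE, against 59.2 ± 1.91 CPM in Cntr DMSO, and its interaction was 0.33 (limma adjusted p = 0.00249). MCCC1, a subunit of the carboxylase of leucine breakdown, rose with the drug by 0.40 in knockout and 0.58 in control cells. Of 5 thiolases other than ACAT1, 1 rose and 0 fell in knockout cells under abemaciclib and 1 and 1 under vehicle, counts near the shares of all genes. ACAA1, the peroxisomal thiolase, rose by 0.22 and 0.51 in knockout cells and by 0.38 and 0.67 with the drug in knockout and control cells. Its call in knockout cells under abemaciclib was lost without Cntr ABE replicate 2 or KO ABE replicate 4 (limma adjusted p up to 0.0759), after median-of-ratios rescaling (0.0657) or quantile normalization (0.0561), without the trend (0.0553) and without the filter (0.0994).

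GSTZ1 belongs to the glutathione transferases, and 11 other members of that family or of the microsomal transferases were tested. In knockout cells 3 rose and 2 fell under abemaciclib, and 2 rose and 3 fell under vehicle. With the drug 2 rose and 5 fell in knockout cells, and 3 and 5 in control cells, while GSTZ1 itself did not pass. Of all genes 18.6% were higher and 11.3% lower under abemaciclib, 24.6 and 13.1% under vehicle, 11 and 27.4% with the drug in knockout cells and 19.6 and 31.1% in control cells, so these counts say little about the family. GSTM2 was the 1 gene of these 11 with a negative called interaction (-0.47), at 12.7 ± 0.254 CPM in KO ABE, 9.68 ± 1.02 CPM in KO DMSO, 13.3 ± 0.639 CPM in Cntr ABE and 7.06 ± 0.340 CPM in Cntr DMSO, from reads whole in 2 of 16 libraries. MGST2, a microsomal transferase, was higher by 0.54 in knockout cells under abemaciclib, with an interaction of 0.41.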

How the data were processed

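The titles placed 16 RNA libraries of T47D cells in 4 groups of 4. Extraction and sequencing were done by a commercial service, which tagged cDNA by tagmentation, per the labels' protocols. Reads were aligned to GRCh38 with STAR 2.7.11, handled with SAMtools 1.22.1 and counted with featureCounts of Subread 2.1.1, with MultiQC 1.32 for quality, per the submitters' processing notes. For the annotation release, strandedness and shared reads, the setting is not given in the sources used here.

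The deposited values are CPM, counts per 1000000 assigned reads, in 1 table of 78986 features. The most frequent value above 0 in each library was taken as 1 read, which gave the reads behind each library, 9915775 to 11963096. Only 70.2 to 71.8% of values above 0 were whole reads within 0.02 reads, so no count test was run. Genes read as whole in 8 or fewer libraries are called uncertain, and without strand, reads of overlapping genes could not be told apart. The 92 ERCC spike-in features (3.06 to 6.28 CPM in all) were left out.

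With limma 3.58.1 in R 4.3.3, log2(CPM + 1) was fitted for the 16218 genes that reached 1 CPM in 4 or more libraries. All 16 libraries entered 1 fit of 4 group means, moderated by empirical Bayes with a trend. Tests were two-sided, p-values were adjusted by Benjamini-Hochberg over all tested genes in each of 5 comparisons, and calls were made at an adjusted p under 0.05. The interaction is the drug difference in knockout cells minus that in control cells. The fit was tested on simulated data. The added 1 CPM makes fold changes of low genes too small. The alternatives were other pseudocounts (0.1 and 0.5), no filter, a filter of 5 CPM, median-of-ratios rescaling, quantile normalization, no trend, a replicate block, only the 2 groups compared and leaving out each library. The block was not part of the main fit, because same-numbered libraries did not deviate together (correlations -0.0367 to 0.0540) and the labels tie them to nothing shared. All library pairs within a group differed by more than sampling noise (chi-square per degree of freedom 1.31 to 4.73).

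Named are all 7 genes, up to 4 called genes per list and comparison by size of change, and the 5 genes nearest in pattern to a gene whose group means span at least 0.5 log2 units, among genes with a symbol and at least 5 CPM in their highest group. Genes of the lists below the filter are also named, and some list genes are not reported here. The 7 genes and the 9 lists were chosen with earlier results of these data known, so no list was tested as a set. Gene positions are those of GENCODE 29 (GRCh38), matched by gene ID. Promoter windows are from RefSeq (GRCh38.p14), where all 7 genes were found.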

Additional observations from a re-analysis of the deposited data

Results flagged for a closer look

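In 2 of the 28 groups of 4 libraries formed by the 7 genes, 1 library lay far from the other 3 by Dixon's criterion at 95%, a share close to the 1 in 20 that chance gives. Both were low libraries of BDH2, at 26.14 CPM in KO ABE replicate 2 and 19.82 CPM in KO DMSO replicate 2.

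The response to abemaciclib differed between knockout and control cells, by the interaction in limma at an adjusted p under 0.05, for AACS (-0.4523) and for 14 genes of the lists. Of all tested genes 4.68% were called higher and 6.16% lower in the interaction. The lists were chosen with earlier results known, so the count of 14 is no result about them. Negative values were found for GSTM2 (-0.4707) and MCCC1 (-0.1816), which rose less with the drug in knockout than in control cells. For SLC16A3 (-0.4250) the drug difference was -0.52 in knockout cells and -0.09, not called, in control cells. Positive values were found for MGST2 (0.4066), HADH (0.3349), ADSL (0.3018), GOT1 (0.2775) and GSTO1 (0.2867). They were also found for ACAT2 (0.2626), MGST1 (0.2585), SDHB (0.2495), FDFT1 (0.2370), FDPS (0.2313) and MDH1 (0.2122). Calls of 3 of these depended on the fit. The ACAT2 interaction was lost in 13 of the 16 fits that left out a library (limma adjusted p up to 0.113), without the filter (0.173) and without the trend (0.106). That of MCCC1 was lost in 11 of 16 (up to 0.121), without the filter (0.149), without the trend (0.130), after median-of-ratios rescaling (0.0709) and with a replicate block (0.0519). That of MDH1 was lost in 5 of 16 (up to 0.0835), without the filter (0.114) and without the trend (0.0964).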

How the results depend on the processing

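The calls of FAH, ACAT1 and BDH1 between genotypes, and of AACS, BDH1 and BDH2 for the drug, kept their direction and their side of the threshold in all 25 alternatives, and the AACS interaction did in all 24. In median-of-ratios rescaling, quantile normalization and the fit without a filter, the count of the 6 genes called higher in knockout cells was 0 under abemaciclib (1 as reported) and 1 under vehicle (2 as reported), and leaving out 1 library gave 0 to 1 and 1 to 2. The count called lower with the drug in knockout cells was 2 with a pseudocount of 0.1 and 1 to 2 when 1 library was left out (1 as reported, 2 without KO ABE replicate 3). Without the filter 1072 genes had a called interaction, against 1758 as reported, and in limma without the trend 1195.

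Values of the 6 tested genes that changed sign were all uncalled ones. With the drug, GSTZ1 was at 0.0650 and 0.0661 in knockout cells and at 0.0212 and 0.0296 in control cells after median-of-ratios rescaling and quantile normalization, and ACAT1 in control cells at 0.0326 and 0.1017, where the last passed. The FAH and ACAT1 interactions were 0.0216 and -0.0257 after quantile normalization. Leaving out 1 library gave -0.0524 to 0.0151 for GSTZ1 and -0.0160 to 0.0323 for ACAT1 with the drug in knockout cells. For the interaction it gave -0.1162 to 0.0072 for FAH, -0.0016 to 0.0659 for GSTZ1, -0.0548 to 0.0039 for BDH1 and -0.0457 to 0.0359 for BDH2. The cause was not tested. Of the called genes of the lists, up to 4 per list and comparison, those with the largest changes, were followed through the alternatives. None of these changed sign, and 57 of 1035 of their values lost the call in alternatives other than leaving out a library. Quantile normalization moved the median of all genes by 0.102 log2 units for KO ABE against KO DMSO, more than any other scaling did in any comparison.

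With a replicate block 4834 genes were called in knockout against control cells under abemaciclib and 6123 under vehicle, 6212 and 8230 with the drug in knockout and control cells, and 1745 in the interaction, and no call of the 6 genes changed. The calls of HMGCLL1 under vehicle, GOT2 with the drug in knockout cells and the MCCC1 interaction were lost (limma adjusted p = 0.0511, 0.0561 and 0.0519). At this depth OXCT1 is limited by counting error, and the shared reads of BDH1 and BDH2 cannot be assigned from CPM.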
